A study of Mus musculus with 6 samples.

Results

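Capn11 and the calpain family were followed in Hoxa9- and Meis1-transduced mouse bone marrow cultures with and without miR-155. The set held 10 listed genes, 9 calpain genes and Cast. Of these, 7 were among the 14860 genes with a row of their own in the value table. The listed genes were looked up by gene symbol, rows naming a single gene were kept, and each of the 7 listed genes found this way had 1 row: Capn11, Capn1, Capn2, Capn5, Capn7, Capn10 and Cast. The Capn3 row also names Ganc, so no value was read for Capn3, and Capn6 and Capns1 were not analysed here. A further 4 calpain genes outside the listed set, Capn8, Capn9, Capn12 and Capn15, had rows of their own and are given for comparison. The set was chosen by the measured difference of Capn11: it was 1 of 4 genes whose difference between the genotypes passed the adjusted test over all genes in an earlier analysis of these data. Its difference is therefore given as a description, with no test.

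The knockout group was 3 arrays of miR-155 knockout cells and the wild-type group 3 arrays of cells with miR-155, written KO and WT with a replicate number. Both groups were primary bone marrow progenitor cultures from female C57Bl/6 mice, aged 12 weeks and given fluorouracil (5-FU), which kills dividing marrow cells. Both carried MSCV retroviral constructs for Hoxa9 and Meis1 and were grown in DMEM with 15% fetal calf serum, IL3, SCF and IL6. Every comparison is thus between 2 kinds of Hoxa9 and Meis1 overexpressing culture, and untransduced marrow was not analysed here. The design calls the experiments independent, but neither it nor the labels tie an array to an animal or a culture. The p-values therefore measure only the spread between these 6 arrays, which may be technical.

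Calpains are cysteine proteases of the cytosol that need calcium and cut their substrates at few places, which changes a protein's activity or position rather than destroying it. Capn1 and Capn2 are the catalytic subunits of the classical calpains, each paired with the small subunit Capns1, and Cast encodes calpastatin, the inhibitor specific to these enzymes. In blood cells calpains are known for cutting talin, spectrin and other proteins that tie the cytoskeleton to adhesion sites. Mouse Capn11 is known mainly from the testis. miR-155 is a microRNA of blood and immune cells that reduces mRNAs it binds, mostly through its seed.

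The sequences shown are the microRNA that the knockout cells lack and the promoters of Capn11, by whose difference the set was chosen, and of Capn2, a classical calpain measured well above background. They were taken from RefSeq on GRCm38.p6, and promoters run from 250 bases before to 50 bases after the listed start. Capitals mark the seed, bases 2 to 8, in the microRNA (chr16:84714143-84714165, plus strand) and CG pairs in the promoters of Capn11 (chr17:45659260-45659559, minus strand) and Capn2 (chr1:182517561-182517860, minus strand).
mmu-miR-155-5p: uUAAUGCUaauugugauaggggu
Capn11: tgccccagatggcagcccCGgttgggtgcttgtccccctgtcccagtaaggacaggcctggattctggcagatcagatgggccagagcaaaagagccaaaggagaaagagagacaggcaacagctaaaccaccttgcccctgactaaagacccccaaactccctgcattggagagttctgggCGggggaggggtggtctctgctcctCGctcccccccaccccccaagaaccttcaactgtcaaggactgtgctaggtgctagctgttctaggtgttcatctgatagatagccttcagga
Capn2: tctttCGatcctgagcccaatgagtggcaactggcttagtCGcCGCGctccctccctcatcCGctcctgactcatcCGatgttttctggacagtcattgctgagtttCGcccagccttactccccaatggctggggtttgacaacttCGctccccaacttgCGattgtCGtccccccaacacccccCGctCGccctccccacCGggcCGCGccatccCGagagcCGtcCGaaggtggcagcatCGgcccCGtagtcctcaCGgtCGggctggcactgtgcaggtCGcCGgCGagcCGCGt

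The Capn11 promoter held 3 CG pairs, against 27 in that of Capn2 and a median of 7 over 32851 promoters of the same length. Of the other measured genes with 1 listed start, Capn7 had 25 and Capn10 21, while Capn12 had 9, Capn9 6 and Capn8 1. Capn1, Cast and Capn15 have several listed starts, with 14 and 15 pairs for Capn1, 2 to 11 for Cast and 3 to 25 for Capn15, and Capn5 had no entry. Since all cultures overexpress Hoxa9 and Meis1, the Capn11 window was searched on both strands for a MEIS core (TGACAG) and a HOX-PBX core (TGATNNAT). One match to each was found, the MEIS core as ctgtca 13 bases before the start on the opposite strand, and the HOX-PBX core as tgatagat beginning 32 bases after it. These motifs occur in 19.2% and 8.85% of all such windows. A GC box (GGGCGG) was also present, as in 35.7% of windows. No match was found for a TATA box (TATAAA, in 13.6% of windows), an E box (CACGTG, 7.15%), an ETS core (CCGGAA, 14.9%), a cyclic AMP element (TGACGTCA, 1.79%) or a RUNX core (TGTGGT, 16.8%).

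The values are log2 expression values made by robust multi-array averaging (RMA), which corrects background, equalises the arrays and summarises the probes of each row. A row's probes set its brightness, so levels of different genes were compared with a background and not with each other. That background was the 95th percentile of the mean levels of 718 olfactory receptor genes, used as genes that marrow cells should lack, and it stood at 5.98. Over all genes, 66.1% had a mean above it. Between the arrays, the median of all rows ran from 6.55 to 6.66 and the percentile of the olfactory receptor genes from 6.01 to 6.30. The first principal component, 37.2% of the variance, put KO 1, KO 2 and WT 2 on one side and KO 3, WT 1 and WT 3 on the other, so it did not follow genotype. All 8 myeloid progenitor markers, among them Kit, Cd34 and Mpo, lay above background in both groups. Of the measured markers of other cells, 4 of 5 T cell, 1 of 4 B cell, 2 of 4 erythroid, 2 of 6 stromal and 3 of 4 endothelial genes lay below it in both groups. All 5 measured megakaryocyte markers and all 5 mast cell and basophil markers lay above it in both groups.

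Capn11 was lower in every knockout array than in every wild-type array. Its log2 level was 4.73, 4.67 and 4.55 in the knockout arrays and 5.84, 6.03 and 5.80 in the wild-type arrays. The groups did not overlap, and a gap of 1.07 on the log2 scale lay between the highest knockout and the lowest wild-type array. The knockout mean was 4.65 ± 0.09 and the wild-type mean 5.89 ± 0.12 (SD, n = 3 each), a log2 difference of −1.24. No fold is given, since both means lay below the background described next. Over all 14860 genes, limma with Benjamini-Hochberg adjustment called 4 genes, all lower in the knockout, a share of 0.0269%, and Capn11 was among them by the way it was chosen. The call rested on all arrays: with any 1 of the 6 left out no gene was called lower, while the Capn11 difference stayed between −1.29 and −1.17.

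The Capn11 signal lay at or under the background in both genotypes. Relative to the olfactory receptor percentile, the wild-type mean stood at −0.09 and the knockout mean at −1.33. Within each array, Capn11 was brighter than 92.2%, 94.99% and 92.1% of the olfactory receptor genes in wild type 1, 2 and 3, and brighter than 72.6%, 70.9% and 66.6% in knockout 1, 2 and 3. No array had Capn11 above its own olfactory receptor percentile, although wild type 2 lay just under it, at 6.03 against 6.04. So the wild-type arrays sat at the upper edge of the background genes and the knockout arrays well inside them. RMA compresses differences of dim probes, and scanner files with detection calls were not used here.

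The olfactory receptor genes varied more than Capn11 did. The median SD within groups was 0.28 for the 718 olfactory receptor genes and 0.12 for all genes, against 0.11 for Capn11. Their differences between the genotypes ran from −1.03 to 1.10. Capn11 was picked out by an adjusted test that weighs the difference against the spread within groups. Its place outside this range was therefore largely fixed by that choice, and its small SD in part. A difference of at least 0.58 in size, 1.5-fold, was seen in 42 of the olfactory receptor genes, 5.85%, against 0.834% of all genes. The groups did not overlap in 78 of the 718, or 10.9%, against 13.3% of all genes. The 4217 other genes below background in both groups, Capn11 among them, varied less, with a median SD of 0.135. Of these 4217, 39 differed by at least 0.58 in size, or 0.925%, and 8.66% had groups without overlap.

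The summed markers of some other cell types also stood apart between the genotypes on these arrays, and their part in the Capn11 difference was not tested. All 5 measured megakaryocyte markers were above 0 in the difference, with none passing the adjusted limma test. At an unadjusted p under 0.05 there was 1, the platelet chemokine precursor Ppbp, against 7.23% of all genes. The summed linear signal of the 5 markers ran from 2235 to 2409 in the knockout and from 1773 to 2013 in the wild type. Most of that gap came from Ppbp, with a log2 difference of 0.49. Gp9 and Vwf differed by 0.23 and 0.11 without overlap, while Pf4 and Itga2b, at 0.13 and 0.01, had overlapping groups. The summed signal of the 4 endothelial markers ran from 2166 to 2376 against 2840 to 3010, almost all of it from Pecam1, whose adhesion protein is shared by endothelial and blood cells. The sum of 4 B cell markers ran from 314 to 356 against 258 to 313, also without overlap but by a narrow margin. The B cell receptor component Cd79b differed by 0.33 (limma, adjusted p = 0.693). Pax5 went the other way, at −0.08 without overlap. Ms4a1, below background in both groups, differed by 0.22, and Cd79a, above background in the knockout only, by 0.10. For 5 mast cell and basophil markers the sum ran from 9531 to 10702 against 8996 to 9556, so the sums overlapped. Of the 5, 4 had differences above 0. Among these Fcer1a, a chain of the IgE receptor, had groups without overlap and a difference of 0.98 (limma, adjusted p = 0.392). For the 8 myeloid progenitor markers the range was 29665 to 31623 against 29234 to 29921, also with overlap. Among the 8, Mpo differed by 0.24 and Cd34 by −0.16, each without overlap (limma, adjusted p = 0.538 and 0.752). The T cell, erythroid and stromal sums overlapped too. The erythroid marker Klf1, below background, and the stromal marker Pdgfrb each differed by −0.34 without overlap (limma, adjusted p = 0.488 and 0.328). On the side of the first principal component holding KO 1, KO 2 and WT 2 the Capn11 difference was −1.33, and on the other it was −1.27, each from 3 arrays. In bulk samples, fewer cells that carry a transcript and less of it per cell cannot be told apart.

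**Figure D1:**
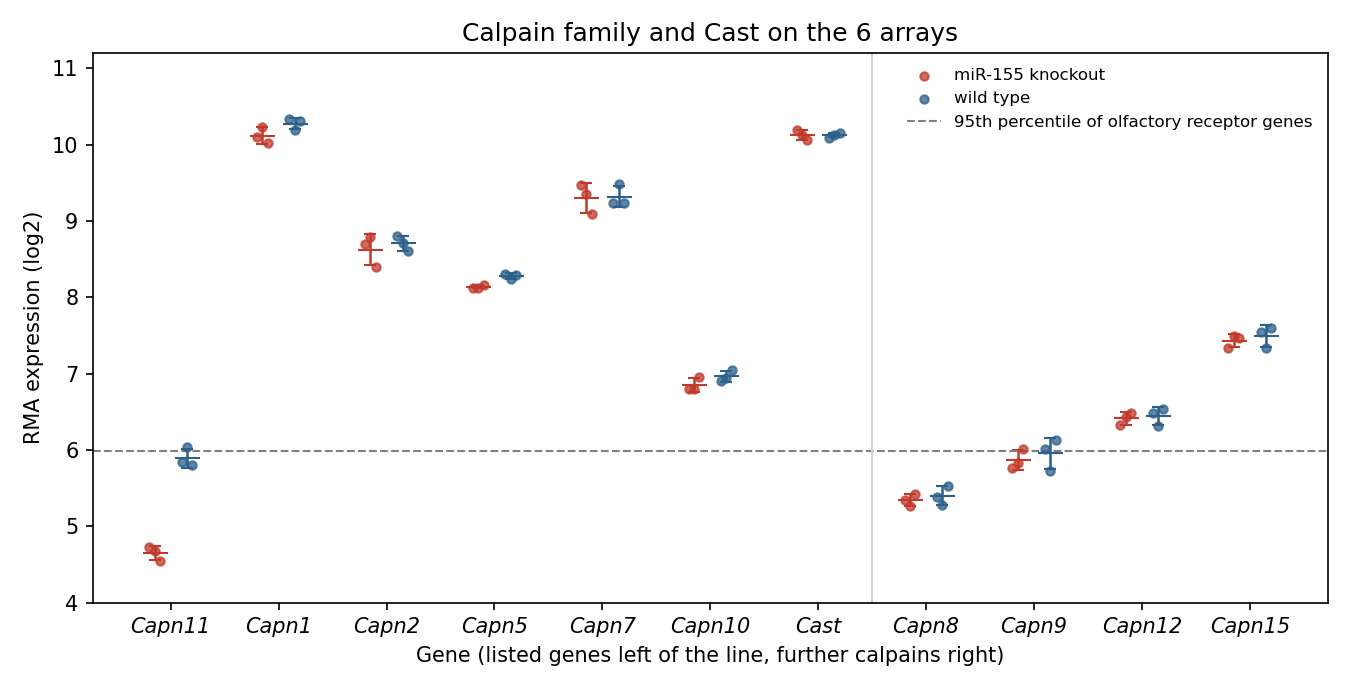
RMA log2 level (vertical axis) of 7 listed and 4 further genes (horizontal axis) on the 3 knockout and 3 wild-type arrays, with points for arrays, horizontal marks for group means and bars for SD. Only Capn11 has groups separated by more than 1 on the log2 scale, and its points lie near or below the dashed olfactory receptor percentile of 5.98. Heights of different genes are not comparable, since each row has its own probes.

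The catalytic subunits of the classical calpains were measured far above background and did not pass the test. Capn1, the mu-calpain subunit, was at 10.10, 10.24 and 10.02 in the knockout and 10.33, 10.19 and 10.31 in the wild type, so the groups overlapped through knockout 2 and wild type 2. The means were 10.12 ± 0.11 and 10.28 ± 0.08 (SD, n = 3 each), a difference of −0.16 with a 95% interval from −0.36 to 0.04 (limma, adjusted p = 0.768). Capn1 differed by −0.02 on the side of the first principal component with KO 1, KO 2 and WT 2 and by −0.30 on the other.

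Capn2, the m-calpain subunit, was at 8.69, 8.79 and 8.39 in the knockout and 8.81, 8.71 and 8.61 in the wild type. Knockout 3 was the low array and the other 5 were interleaved. The means were 8.62 ± 0.21 and 8.71 ± 0.10 (SD, n = 3 each), a difference of −0.08 with a 95% interval from −0.36 to 0.19 (limma, adjusted p = 0.921). Within the sides of the first principal component it differed by 0.03 and by −0.32, so its sign changed, and without knockout 3 it was 0.03.

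The inhibitor Cast had the smallest range over the 6 arrays of the 7 measured listed genes, while Capn5 had the smaller spread within groups. The Cast 6 values were 10.20, 10.13 and 10.07 in the knockout and 10.09, 10.13 and 10.15 in the wild type, a range of 0.13 over all arrays. The means were 10.13 ± 0.07 and 10.12 ± 0.03 (SD, n = 3 each) and the difference 0.01 (limma, adjusted p = 0.99). Its 95% interval, from −0.16 to 0.17, spans linear ratios of knockout to wild type from 0.894 to 1.13.

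Among the calpains without the classical subunit pairing, Capn5 was the 1 other listed gene whose groups did not overlap. Capn5, which has a C2 domain in place of the calcium-binding penta-EF-hand domain, was at 8.13, 8.13 and 8.16 in the knockout and 8.31, 8.23 and 8.30 in the wild type. The means were 8.14 ± 0.02 and 8.28 ± 0.04 (SD, n = 3 each), a difference of −0.14 with a 95% interval from −0.30 to 0.02 (limma, adjusted p = 0.732). Together with Capn11 this made 2 of 7 listed genes without overlap, both lower in the knockout, against 13.3% of all genes in either direction and 10.4% lower. The choice of Capn11 fixed 1 of the 2.

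Capn7, the mammalian relative of the fungal calpain PalB, was at 9.47, 9.35 and 9.09 in the knockout and 9.23, 9.48 and 9.24 in the wild type. Its arrays were spread widely in both groups. The difference was −0.02 with a 95% interval from −0.30 to 0.27 (limma, adjusted p = 0.985). Capn10, known from human studies of diabetes risk, was at 6.80, 6.80 and 6.96 in the knockout and 6.90, 6.94 and 7.04 in the wild type. Knockout 3 lay among the wild-type arrays, and the difference was −0.11 with a 95% interval from −0.30 to 0.08 (limma, adjusted p = 0.846).

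The further calpains fell on both sides of the background. Capn8 and Capn9, which are known from the stomach, had means under the background level in both genotypes, with arrays from 5.26 to 5.53 and from 5.73 to 6.12. Capn12, known from skin, ran from 6.31 to 6.53 and Capn15, which carries zinc fingers, from 7.33 to 7.60, both above it. In all 4 the groups overlapped, and the differences were −0.06, −0.09, −0.03 and −0.06 (limma, adjusted p from 0.918 to 0.965). Capn8, Capn9 and Capn11 were the 3 of 11 measured family genes with both means below background.

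Leaving Capn11 aside, 0 of the other 6 listed genes passed the adjusted limma test and 0 were at an unadjusted p under 0.05, against 7.23% of all genes at that unadjusted threshold. Their median difference was −0.10 and 5 of 6 were below 0, where the median of all genes was −0.03 and 9069 of 14860 were below 0. The 6 arrays limit what can be seen: the 95% intervals of these 6 genes reached 0.16 to 0.28 to either side of the measured difference.

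**Figure D2:**
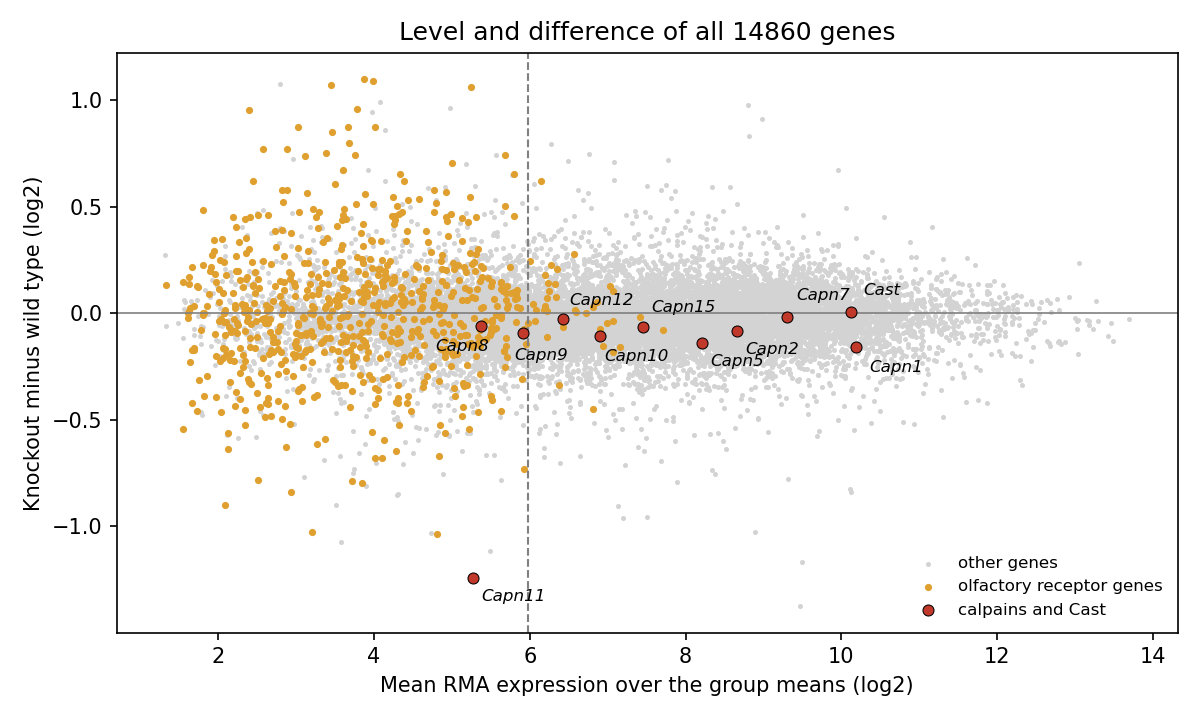
Difference between knockout and wild type (vertical axis, log2) against the mean of the group means (horizontal axis, log2) for all 14860 genes, with olfactory receptor genes and the 11 measured family genes marked and the 5.98 percentile dashed. Capn11, chosen by its difference, lies at −1.24, and the other family genes lie between −0.16 and 0.01.

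No measured gene next to Capn11 on chromosome 17 passed the test. Of the 5 nearest measured genes on each side in RefSeq gene order, 0 of 10 passed the adjusted limma test. At an unadjusted p under 0.05 there was 1, against 7.23% of all genes. That gene was Nfkbie, an inhibitor of NF-kB, at 7.46, 7.42 and 7.44 in the knockout and 7.63, 7.68 and 7.71 in the wild type (difference −0.23, limma, adjusted p = 0.488). The nearest measured genes, the nucleoside transporter Slc29a1 and the membrane protein gene Tmem63b, differed by −0.13 and −0.10. The 10 neighbours ran from −0.23 to 0.09 with a median of −0.12, the lowest bound of their 95% intervals was −0.45 for the testis gene Tcte1, and 2 of them, Nfkbie and the mitochondrial ribosomal protein gene Mrps18a, had groups without overlap, against 13.3% of all genes. Differences were below 0 in 9 of the 10, against 9069 of all 14860 genes, whose median difference was −0.03. Vegfa, the vascular growth factor, differed by −0.18 (limma, adjusted p = 0.793).

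**Figure D3:**
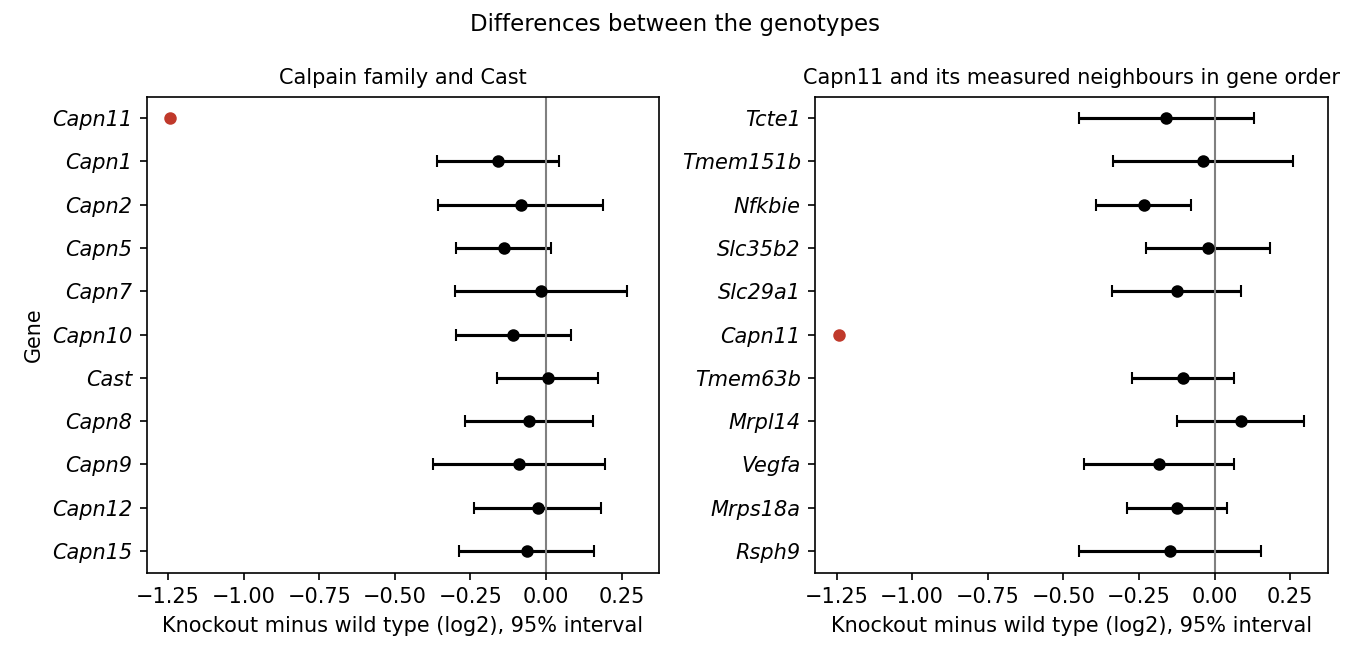
Difference between knockout and wild type (horizontal axis, log2; points with 95% intervals from limma, none drawn for Capn11, which was chosen by this value) for the 11 measured family genes (left) and for Capn11 among its 10 measured neighbours in chromosome order (right). The neighbours lie between −0.23 and 0.09, and Capn11 at −1.24.

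No calpain substrate measured here passed the test. The arrays read mRNA, so cutting of the substrate proteins was not measured. Of 20 substrates listed, 16 were measured, all above background. In either direction 0 passed the adjusted limma test and 0 were at an unadjusted p under 0.05, against 0.0269% and 7.23% of all genes. The median difference of the 16 was −0.05 with 12 of 16 below 0. Over all genes the median was −0.03 and 9069 of 14860 were below 0. Groups did not overlap in 4 of the 16, or 25%, against 13.3% of all genes, in either direction. The phosphatase gene Ptpn1 differed by −0.18, the adhesion adaptor Pxn by −0.17 and the focal adhesion kinase relative Ptk2b by −0.12. The integrin Itgb3, which platelets carry, differed by 0.16, at 8.50, 8.45 and 8.72 in the knockout against 8.37, 8.42 and 8.40 in the wild type (limma, adjusted p = 0.771).

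The penta-EF-hand proteins share the calcium-binding fold of the classical calpains. Of the 4 measured, Pef1 differed by −0.15, Sri (sorcin) by −0.07, Gca (grancalcin, a neutrophil protein) by 0.04 and Pdcd6 by −0.02. Among them 0 passed (limma, adjusted p from 0.789 to 0.973), against 0.0269% of all genes. An unadjusted p under 0.05 was seen in 0, against 7.23% of all genes.

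Genes that set cytosolic calcium, on which calpains depend, gave 0 of 12 measured genes past the adjusted limma test. At an unadjusted p under 0.05 there were 3, all lower in the knockout. Over all genes the share at that threshold was 7.23% in either direction, with 809 of 14860 genes lower. The median difference of the 12 was −0.14 with 8 of 12 below 0, where 9069 of all 14860 genes were below 0. Atp2a3, a calcium pump of the endoplasmic reticulum in blood cells, was at 10.09, 10.27 and 10.24 against 10.42, 10.35 and 10.54 (difference −0.24, limma, adjusted p = 0.605). Orai2, a subunit of store-operated calcium channels, differed by −0.35 (limma, adjusted p = 0.611), and knockout 1 overlapped the wild-type arrays. Saraf, an inhibitor of store-operated entry, differed by −0.17 and the plasma membrane pump Atp2b4 by −0.25 (limma, adjusted p = 0.653 and 0.746).

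Lysosomal cysteine proteases and their cystatin inhibitors, which act apart from calpains, gave 0 of 13 measured genes past the adjusted limma test. At an unadjusted p under 0.05 there was 1, against 7.23% of all genes. That gene, Cstb, the cytosolic inhibitor cystatin B, was at 9.84, 9.96 and 9.92 in the knockout and 10.16, 10.24 and 10.19 in the wild type (difference −0.29, limma, adjusted p = 0.431). The secreted inhibitor Cst3 differed by −0.27 and the protease Ctsb by −0.13, and Cst6, below background, by −0.18.

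Since mouse Capn11 is known from the testis, germ cell genes were read on the same arrays. Of 17 measured, 13 lay below background in both groups. The other 4, Ddx4, Prm1, Prm2 and Tnp2, lay above it in both, and whether they were expressed was not tested. Of all 17, 0 passed the adjusted limma test and 0 were at an unadjusted p under 0.05, against 0.0269% and 7.23% of all genes. The median difference of the 17 was −0.04, from −0.22 for the sperm chromatin gene Tnp1 to 0.10. Odf1, a sperm tail gene, differed by −0.17, the germ cell glycolysis gene Pgk2 by −0.16 and the meiosis gene Stra8 by 0.09.

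The genes most like Capn11 over the 6 arrays were sought among 937 genes above background whose values ranged over at least 0.58. As a description, Pearson's r was highest for Adgre1, the macrophage antigen F4/80, at 0.991, then for the calcium-binding protein gene S100a6 at 0.988, the lipase gene Abhd6 at 0.983, Rcn3 at 0.983 and the anion transporter gene Slc26a6 at 0.978. Adgre1 ordered the 6 arrays exactly as Capn11 did, at 9.86, 9.67 and 9.56 in the knockout and 10.49, 10.60 and 10.47 in the wild type. The lowest r was found for the P-selectin gene Selp at −0.974, the amine oxidase gene Maob at −0.963, the actin-cutting Scin at −0.959, Ppbp at −0.958 and the serotonin synthesis gene Tph1 at −0.946. All 10 had groups without overlap, so these values mostly restate the genotype split of the same 6 arrays. In all, 39 of the 937 genes had r above 0.9 and 12 below −0.9. Within the family r with Capn11 was 0.88 for Capn5, 0.69 for Capn1, 0.55 for Capn10 and 0.002 for Cast.

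**Figure D4:**
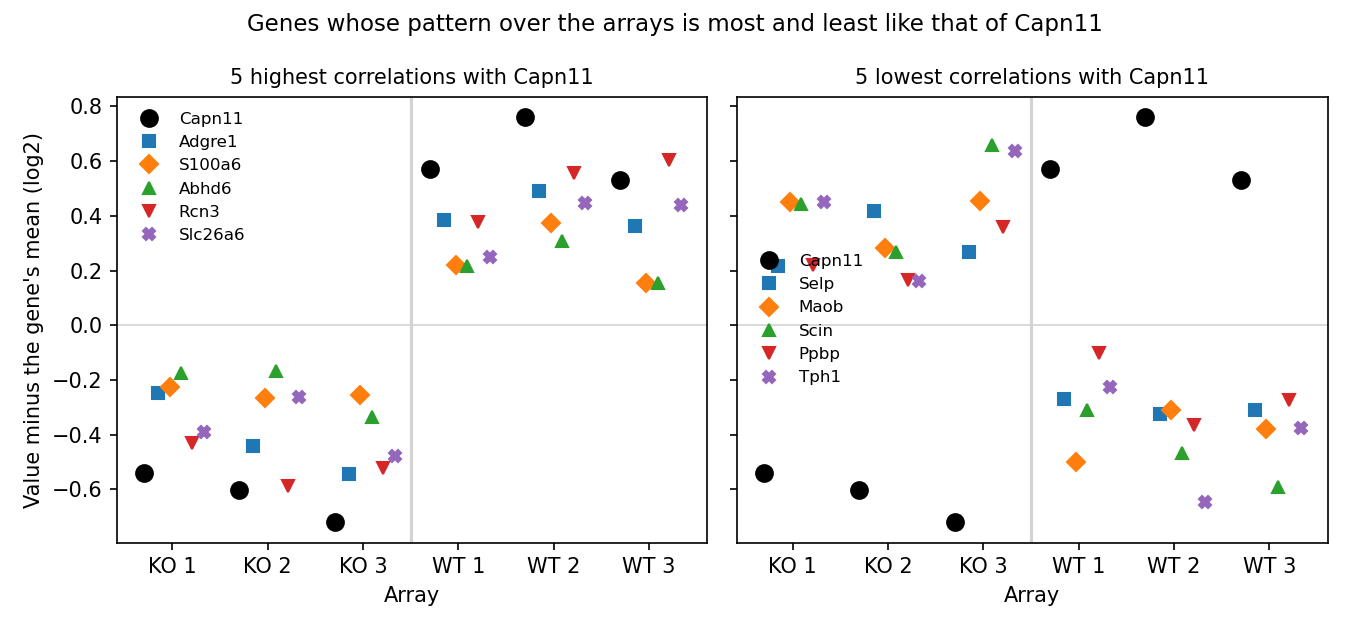
Values of Capn11 and of the 5 genes with the highest (left) and 5 with the lowest (right) correlation with it, each minus the gene's own mean (vertical axis, log2), on the 3 knockout and 3 wild-type arrays (horizontal axis). Every gene shown has its knockout and wild-type points on opposite sides of 0.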

How the data were processed

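Total RNA of the 6 samples was labelled with biotin with an Affymetrix kit for whole-transcript arrays, per the labels' protocols. Per the submitters' processing notes, the authors used Affymetrix Expression Console and RMA to make the deposited log2 values, with no versions or settings named. Of 23332 rows, 14996 had 1 gene symbol in the platform annotation, 1019 had several and 7317 were unnamed here, and the row with the highest mean per gene left 14860 genes. By gene identifier, 14941 of the 14996 rows matched RefSeq.

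Groups were taken from sample titles, and wild-type arrays were numbered in listing order, so numbers pair no samples. The genotypes were compared with limma 3.58.1 in R 4.3.3 (lmFit, eBayes, no filter, two-sided, Benjamini-Hochberg over all genes, threshold 0.05), a fit tested on simulated data. An exact permutation test of 3 against 3 arrays cannot go below 0.1. The median standard error was 0.10 on the log2 scale. All members were named, with neighbours, the 5 most and least correlated genes and up to 4 genes per list with the smallest p. Predicted genes, chemoreceptor genes and small RNA genes could not enter the correlated genes. Members, lists and settings were chosen with earlier results of these data known. Transcript sequences were not used, so miR-155 seed sites were not tested. No row was named for Mir155, so its level could not check the labels. Figures used Python 3.11.15 and matplotlib 3.10.9.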

Additional observations from a re-analysis of the deposited data

How the results depend on the processing

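In the 10 alternatives that could move it, the Capn11 difference ran from −1.30 to −1.17. The first was with the side of the first principal component as a block, the second without wild type 2. Its sign could not change in the fits without 1 array, since the groups did not overlap. The difference moved by less than the spread between replicates in each of the 10. In the 6 fits without 1 array it could not move by more, so those 6 show nothing about steadiness. Trend and robust variance models and the mean of a gene's rows leave the difference as it is by construction. The call of Capn11 among the listed genes was less steady. The count of listed genes called, 1, fell to 0 in each of the 6 fits without 1 array (range 0 to 0). It was also 0 with the filter at the 50th percentile of level, which leaves Capn11 out by construction. Over all genes, the 4 lower calls became 2 after median centring, 8 with an eBayes trend, 11 with array weights, 11 with the filter at the 50th percentile and 10 at a threshold of 0.1. The 0 higher calls (265 at an unadjusted p under 0.05) became 5 with array weights, 3 with that filter, 1 with the trend, 1 with the principal component block and 2 at a threshold of 0.1. Without 1 array, lower calls ranged from 0 to 0 and higher calls from 0 to 1, with fewer arrays by construction. The cause of the other changes was not tested. The other 6 listed genes had 0 calls in every alternative, and their median ran from −0.12 to −0.04. Of the 6, 3 to 6 were below 0, with 5 of 6 after median centring and after quantile normalisation, 3 of 6 without knockout 3, and 4 of the 5 that the filter kept. Of the 7 measured listed genes, 6 lay above the olfactory receptor background, 5 at the 99th percentile and 7 at the 50th. No other row existed for a measured member, so other rows per gene gave no value. No paired analysis was possible because all wild-type titles end in the same numeral.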
